A study of Caenorhabditis elegans with 9 samples.

Results

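Whole worms of the Caenorhabditis elegans strain WLZ3, which carries the G2019S form of human LRRK2, were compared with worms of the strain WLZ1, which carries wild-type human LRRK2. WLZ3 holds the integrated transgene wlzIs3 [snb-1p::Hsa-LRRK2(G2019S) + lin15(+)], and WLZ1 holds wlzIs1 [snb-1p::Hsa-LRRK2 + lin15(+)], so both strains share the snb-1 promoter, which is active in neurons, and a lin-15 marker. Each strain is a single integrated line, and the LRRK2 allele, the insertion site, the copy number and the strain background cannot be told apart. The comparison rests on 3 libraries of WLZ3 and 3 of WLZ1, 6 of the 9 libraries in the series. The other 3 are from N2, the Bristol wild type without a transgene, whose values stand beside the results for orientation. The worms were kept at 20 °C with OP50 bacteria as food; the labels state no stage, age or sex. Poly(A) RNA of whole animals was sequenced. Whether libraries of 1 strain stem from different cultures is not stated, so a p-value here reflects the spread between libraries, which may be technical.

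All genes with a fragments-per-kilobase-per-million (FPKM) value of at least 1 in at least 3 of the 6 libraries were tested, 13902 of the 28749 genes in the deposited table. Another 3947 genes were listed at 0 in all 6 libraries. K08C7.7 lay just inside this limit, with 1.0005 FPKM as the value that decided, and C49A9.3 lay just outside it, at 0.9999 FPKM. A gene could also pass through the 3 libraries of 1 strain alone while under 1 FPKM in the other. Its direction was then fixed by the limit. Named genes of this kind include rbf-1, mks-2, flp-23, dod-21 and the genes on in 1 strain only. A log2 change is the WLZ3 mean minus the WLZ1 mean on the log2(FPKM + 1) scale, which understates the change of low genes. A gene was called at a Benjamini-Hochberg adjusted p under 0.05 in limma, a linear model fitted across all genes.

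LRRK2 is a large protein with a kinase and a GTPase domain, and G2019S, which changes the kinase domain, is a common cause of inherited Parkinson disease. In mammalian cells the kinase phosphorylates Rab GTPases, which direct traffic between membranes, and G2019S raises its activity. The worm has its own gene of this family, lrk-1. C. elegans hermaphrodites make sperm first and oocytes later, moult between larval stages, and carry a germ line that supplies much of the RNA of an adult animal.

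The libraries held 44994273 to 53336540 reads counted in genes, as recovered from the FPKM values, and 20181 to 21022 genes above 0. Pearson correlations of log2(FPKM + 1) were 0.983 to 0.992 between WLZ3 libraries and 0.992 to 0.994 between WLZ1 libraries, against 0.957 to 0.965 between the strains. With N2 libraries they were 0.959 to 0.982 for WLZ3 and 0.910 to 0.938 for WLZ1. On this measure WLZ1 lay further from N2 than WLZ3 did, so higher in WLZ3 than in WLZ1 need not mean higher than in N2. WLZ3 replicate 1 stood apart from its strain. In it 228 genes lay more than 2-fold above the median of the 3 WLZ3 libraries, against 29 in replicate 2 and 25 in replicate 3, and 46 of the 228 were cuticle collagens and 27 were major sperm protein genes. Results that rest on these families are therefore given with and without that library. Each of the 25 tissue markers examined was above 0 in all 6 libraries. The lowest values were those of sperm gsp-3 (from 0.320 FPKM), neuronal rgef-1 (from 0.427 FPKM) and the glial markers daf-6 (from 0.428 FPKM) and fig-1 (from 0.493 FPKM), while the markers of body wall muscle, intestine, oocytes and germ line all stayed above 5 FPKM. In whole animals, fewer cells of a type and less RNA per cell cannot be told apart.

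Genes tied to the transgenes came first. lin-15A, a synMuv chromatin gene supplied by the lin-15(+) marker, had 22.4, 23.1 and 22.5 FPKM in WLZ3, against 76.4, 70.3 and 76.8 FPKM in WLZ1 and a mean of 16.8 FPKM in N2. The WLZ3 libraries lay tightly together and far below every WLZ1 library (log2 change -1.67, SE 0.05, limma adjusted p = 3.7e-07). lin-15B, the other synMuv gene of that locus, had 37.8, 42.8 and 41.8 FPKM in WLZ3, against 87.9, 76.9 and 83.6 FPKM in WLZ1 and 17.5 FPKM in N2 (log2 change -1.0036, SE 0.06, limma adjusted p = 1.25e-05). Both lin-15 genes were thus lower in WLZ3 than in WLZ1, and higher in either than in N2 by mean.

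snb-1 encodes synaptobrevin, the vesicle protein whose promoter drives both transgenes. Its level was 172, 176 and 164 FPKM in WLZ3, against 192, 169 and 188 FPKM in WLZ1, and the strains overlapped (log2 change -0.10, limma adjusted p = 0.23). With median-of-ratios scaling of the libraries the value became -0.23 and passed (limma adjusted p = 0.00585). T10H9.10 is a non-coding gene annotated 2519 bases beyond snb-1 on chromosome V, chosen after its values were seen. It was listed at 0 in every N2 library and had 45.2, 38.5 and 45.9 FPKM in WLZ3, against 35.6, 33.1 and 30.9 FPKM in WLZ1. Here WLZ3 was the higher strain (log2 change 0.37, SE 0.09, limma adjusted p = 0.00876), the opposite direction from the lin-15 genes. lrk-1, the worm's own LRRK gene, had 6.86, 6.93 and 6.88 FPKM in WLZ3, against 5.60, 5.67 and 5.20 FPKM in WLZ1 and 7.57 FPKM in N2. The WLZ3 libraries lay above those of WLZ1 (log2 change 0.28, SE 0.08, limma adjusted p = 0.0165). The call was lost after median-of-ratios scaling (limma adjusted p = 0.106), without WLZ3 replicate 3, and after quantile normalization, where the sign turned (-0.0672). lrk-1 overlaps mop-25.3 and T27C10.8 in the annotation, and the strand used in counting is not given. Levels of the human LRRK2 transcript itself were not analysed.

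**Figure D1:**
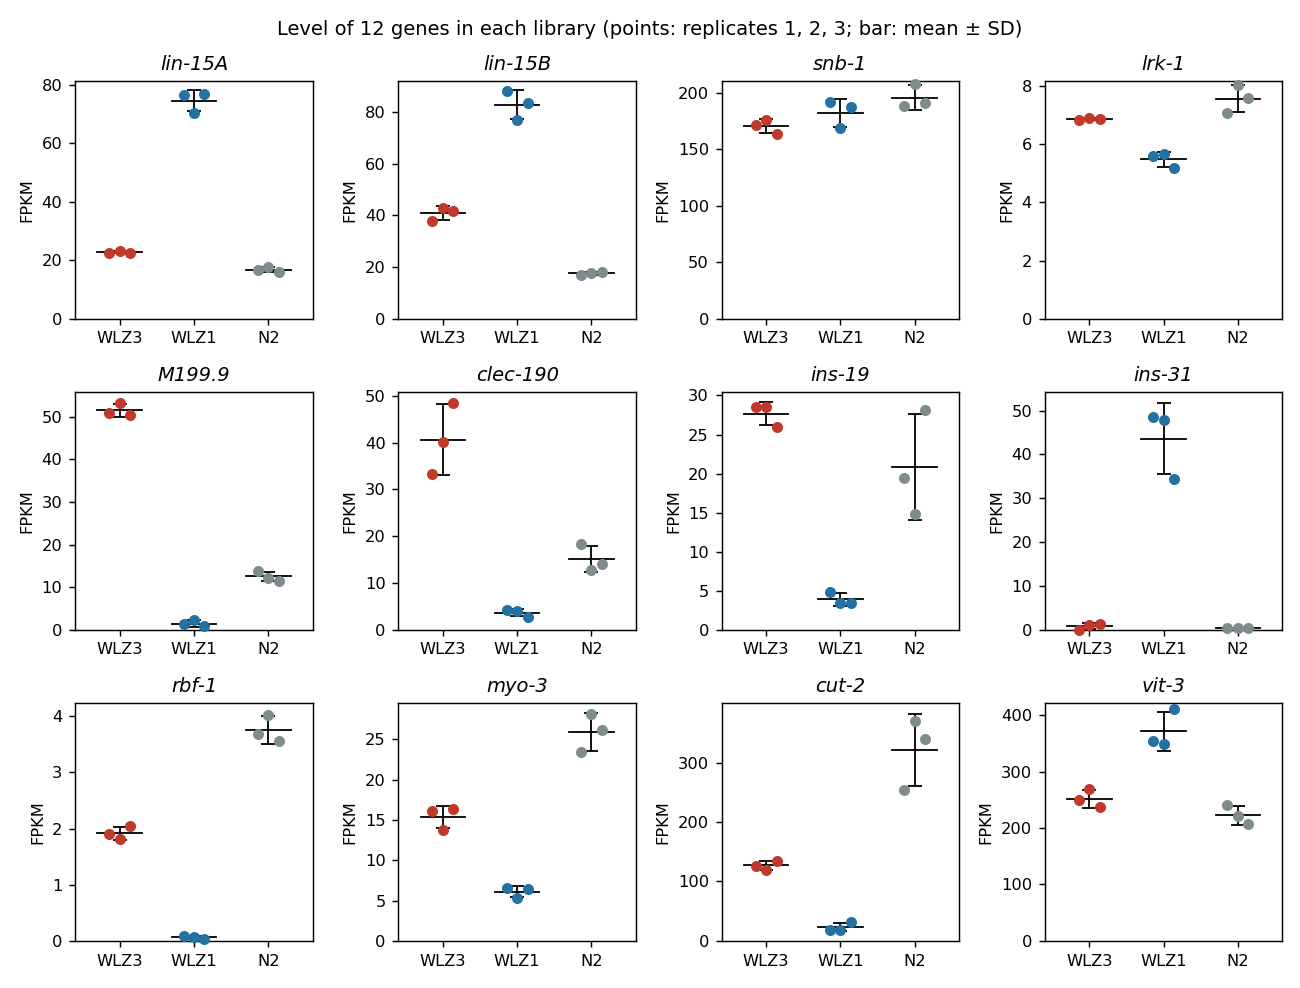
FPKM of 12 genes in each library, with WLZ3 on the left, WLZ1 in the middle and N2 on the right of each panel; points are replicates and bars are mean ± SD. lin-15A, lin-15B and ins-31 lie lower in WLZ3 than in WLZ1, while M199.9, clec-190, ins-19, rbf-1, myo-3 and cut-2 lie higher without overlap.

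Across all genes, 6047 of 13902 (43.5%) differed between WLZ3 and WLZ1 in limma, 4174 higher in WLZ3 (30%) and 1873 lower (13.5%). Differences of at least 2-fold in mean FPKM were called for 1468 genes higher in WLZ3 (10.6%) and 537 lower (3.86%). The WLZ3 and WLZ1 libraries did not overlap for 7822 genes (56.3%). Without WLZ3 replicate 1 the calls were 3552 higher and 1533 lower, and without WLZ3 replicate 3 the number lower fell to 1109. The balance of directions depended on scaling. Of the calls, 69.026% were higher in WLZ3 for the deposited values, 44.3% after median-of-ratios scaling and 47.5% after quantile normalization. Over all genes the median log2 change was 0.08 for the deposited values, -0.05 after median-of-ratios scaling and -0.03 after quantile normalization, and 0 genes were called in opposite directions by any of these fits. List counts below are read against the 30% higher and 13.5% lower of all genes, and list medians against these values. Where a list is given with no count under another scaling, its counts stayed within 1.5 times or moved by at most 3. Counts of 5 or fewer within a list moved by at most 3 when 1 library was left out.

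**Figure D2:**
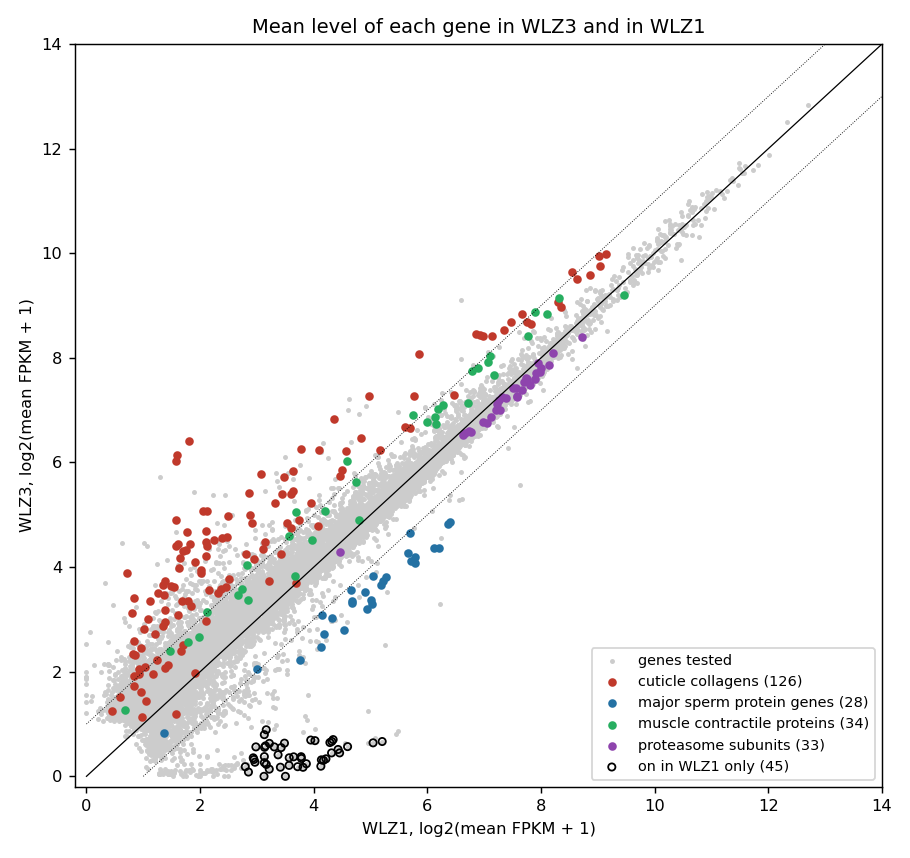
Each point is a tested gene at its mean in WLZ1 (horizontal axis) and in WLZ3 (vertical axis), both as log2(mean FPKM + 1); the solid line marks equal levels and the dotted lines 2-fold differences. Most cuticle collagens and muscle genes lie above the solid line, most major sperm protein genes below it, most proteasome subunits slightly below it, and the 45 genes on in WLZ1 only lie along the bottom.

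The largest rises in WLZ3 held 2 kinds of gene, those steady across the WLZ3 libraries and those led by WLZ3 replicate 1. M199.9, a gene with no described role in the files, had 50.95, 53.2 and 50.4 FPKM in WLZ3, against 1.33, 2.24 and 0.776 FPKM in WLZ1 (log2 change 4.47, SE 0.18, limma adjusted p = 1.12e-06). Its neighbour clec-190, 1324 bases away on chromosome IV, encodes a C-type lectin domain protein and had 33.4, 40.1 and 48.5 FPKM in WLZ3, against 4.12, 4.05 and 2.83 FPKM in WLZ1 (log2 change 3.16, adjusted p = 4.14e-06). The next gene on that side, col-135, did not pass in limma (log2 change 0.01, adjusted p = 0.965). N2 lay between the strains for both, with means of 12.5 FPKM for M199.9 and 15.1 FPKM for clec-190. T04D3.8 had 42.7, 41.97 and 41.5 FPKM in WLZ3, against 4.002, 2.31 and 1.83 FPKM in WLZ1, and ztf-28, named as a zinc finger factor, had 22.5, 25.97 and 25.4 FPKM in WLZ3, against 2.39, 1.42 and 2.12 FPKM in WLZ1. In these steady genes the lowest WLZ3 library stood several-fold above the highest WLZ1 library. Y49G5A.1 (log2 change 3.85), F57G8.7 (3.36), F59C6.18 (2.81), meic-1 (2.81) and Y106G6E.3 (2.71) were of the same kind.

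The pseudogene Y106G6E.3 was nearly silent outside WLZ3. It had 6.10, 5.41 and 5.91 FPKM in WLZ3, against 0.0571, 0 and 0.0572 FPKM in WLZ1 and a mean of 0.0472 FPKM in N2. With F57G8.7 and F59C6.18, it made up the 3 genes that reached 5 FPKM in each WLZ3 library and stayed under 1 FPKM in each WLZ1 library. The other 6 of the 15 largest rises were the collagen genes col-139, col-81, col-129, col-133 and col-161 and the gene Y47D7A.15, all of them uneven in WLZ3. col-139 had 189, 8.62 and 54.9 FPKM in WLZ3, against 1.25, 1.55 and 4.75 FPKM in WLZ1 (log2 change 3.87, SE 0.88, limma adjusted p = 0.00738). Without WLZ3 replicate 1 its change was 2.86 (limma adjusted p = 0.0109).

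The largest falls were genes with a level in WLZ1 and almost none in WLZ3 or N2. K12H6.9 had 0.192, 1.43 and 0.607 FPKM in WLZ3, against 45.9, 42.2 and 39.8 FPKM in WLZ1 and 0.334 FPKM in N2 (log2 change -4.71, SE 0.27, limma adjusted p = 5.88e-06). K12H6.4, which lies 134 bases away on chromosome II, had 0.187, 1.06 and 0.339 FPKM in WLZ3, against 35.9, 28.1 and 30.5 FPKM in WLZ1. K03D3.5 (log2 change -4.56), clec-197 (-4.41), F26D10.13 (-4.36), F09C6.10 (-4.36), C09G12.5 (-4.01) and srlf-18 (-3.98) followed the same pattern. So did try-8, named as a trypsin-like protease, and scl-15, named as a secreted SCP-like protein. try-8 had 0.241, 0.477 and 0.374 FPKM in WLZ3, against 21.9, 22.2 and 18.7 FPKM in WLZ1 (log2 change -4.01, limma adjusted p = 3.06e-07). For genes this close to 0 in WLZ3, the size of the log2 change depends on the pseudocount of 1.

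Genes that reached 5 FPKM in each WLZ1 library but stayed under 1 FPKM in each WLZ3 library numbered 45, against 3 the other way round. They lay on chromosomes II (12 genes), III (11), V (10), IV (7), I (3) and X (2). Their names included 7 C-type lectin (clec) genes, 3 fipr and 1 fip genes of the fungus-induced peptide families, 2 scl and 2 try genes, and 25 had no family name. N2 means for them were 0.0240 to 1.07 FPKM, low like those of WLZ3. Within WLZ3, replicate 1 listed 14 of the 45 at 0, against 4 in replicate 2 and 4 in replicate 3, and their summed level was 8.63, 19.5 and 18.8 FPKM in WLZ3, against 655, 555 and 528 FPKM in WLZ1.

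Among insulin-like peptides, secreted ligands of the DAF-2 receptor, a neighbouring pair moved in opposite directions. ins-31 had 0.0621, 1.15 and 1.29 FPKM in WLZ3, against 48.6, 47.9 and 34.4 FPKM in WLZ1 and 0.419 FPKM in N2 (log2 change -4.67, SE 0.27, limma adjusted p = 5.88e-06). ins-19, 599 bases from it on chromosome II, had 28.5, 28.5 and 25.9 FPKM in WLZ3, against 4.87, 3.42 and 3.42 FPKM in WLZ1 and 20.8 FPKM in N2 (log2 change 2.56, SE 0.20, limma adjusted p = 3.37e-05). In both genes WLZ3 lay nearer to the N2 mean than WLZ1 did. Of the 22 insulin-like peptide genes tested of 40, 7 were higher in WLZ3 and 4 lower, shares near the 30% and 13.5% of all genes, with a median of 0.21. The number higher was 4 without WLZ3 replicate 1 and 3 after quantile normalization. ins-1 and daf-28, which are made in neurons, rose by 0.84 and 0.65, and both calls were lost with quantile normalization (limma adjusted p = 0.0808 and 0.156).

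Neuronal genes were mostly higher in WLZ3. Of 33 genes for synaptic vesicle release, 24 were higher and 1 lower (median log2 change 0.55), against 30% and 13.5% of all genes. rbf-1, the worm rabphilin, which binds RAB-3 on synaptic vesicles, had 1.90, 1.81 and 2.04 FPKM in WLZ3, against 0.0815, 0.0722 and 0.0363 FPKM in WLZ1 and 3.76 FPKM in N2 (log2 change 1.46, SE 0.10, limma adjusted p = 1.68e-05). It was the largest rise in its list, and it overlaps isw-1 and F37A4.10. sng-1, a synaptogyrin of the vesicle membrane, had 5.85, 5.31 and 4.74 FPKM in WLZ3, against 2.101, 1.48 and 1.98 FPKM in WLZ1, and syd-1, which helps assemble the active zone, rose by 1.01. The single fall was unc-57, the endophilin of vesicle recycling, with 104.4, 104.3 and 102 FPKM in WLZ3, against 112.02, 113 and 117 FPKM in WLZ1 (log2 change -0.14, limma adjusted p = 0.012).

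Transmitter synthesis and transport genes numbered 16 tested of 21, with 11 higher and 2 lower (median 0.47), and 7 higher without either WLZ3 replicate 3 or WLZ1 replicate 3 and 6 after quantile normalization. Summed over the list, however, the level was lower in WLZ3, at 310, 308 and 299 FPKM, against 334, 333 and 335 FPKM in WLZ1. The acetylcholinesterases ace-3 and ace-2 rose by 1.17 and 0.72, and the GABA transporter snf-11 by 1.06. tbh-1, which makes octopamine, fell to 97.6, 101 and 102 FPKM in WLZ3, against 130.3, 126 and 129 FPKM in WLZ1 (log2 change -0.36, SE 0.04, limma adjusted p = 0.00016). The other fall was tdc-1, which makes tyramine (log2 change -0.14, limma adjusted p = 0.0427), a call lost without WLZ3 replicate 1, 2 or 3 or WLZ1 replicate 3. Of 101 neuropeptide and processing genes, 42 were higher and 3 lower (median 0.31), but 17 higher and 6 lower after quantile normalization. nlp-39 led them, with 61.6, 79.4 and 105.5 FPKM in WLZ3, against 20.1, 16.9 and 14.01 FPKM in WLZ1 and a mean of 211 FPKM in N2 (log2 change 2.19, limma adjusted p = 4.63e-05). flp-23, an FMRFamide-like peptide gene, had 0, 0 and 0.206 FPKM in WLZ3, against 1.70, 1.05 and 1.67 FPKM in WLZ1. Most called peptide genes were thus higher in WLZ3, and flp-23 was the largest fall.

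Genes of touch neurons and the axon cytoskeleton showed 14 higher and 1 lower of 20 (median 0.56). ric-3, a chaperone of acetylcholine receptors, had 12.7, 13.4 and 14.2 FPKM in WLZ3, against 5.55, 3.98 and 5.47 FPKM in WLZ1 (log2 change 1.27, limma adjusted p = 0.000105), and the tubulins tbb-4 and mec-12 rose by 0.96 and 0.95. mec-15, an F-box protein, was the single fall (-0.12, limma adjusted p = 0.029), and it was lost when any of the 6 libraries was left out. Of 39 genes for intraflagellar transport and cilia, the sensory organelles of worm neurons, 31 were higher and 1 lower (median 0.64). At least 2-fold higher were 22 of them, against 10.6% of all genes. Low genes rose more often as a class, with 38.7% higher under 3 FPKM and 48.8% at 3 to 10 FPKM. Like mks-2 here, rgef-1 of the touch neuron list and daf-6 of the glial list passed the limit on low values through WLZ3 alone. mks-2, of the transition zone at the base of the cilium, had 1.04, 1.47 and 2.02 FPKM in WLZ3, against 0.449, 0.0735 and 0.346 FPKM in WLZ1. dyf-7, which anchors sensory dendrites, rose by 1.06. dyf-3, needed to build cilia, was the exception, with 8.84, 8.25 and 8.55 FPKM in WLZ3, against 15.5, 13.9 and 15.5 FPKM in WLZ1 (log2 change -0.74, limma adjusted p = 0.000363). Glial genes were higher in 9 of 12 and lower in 0 (median 0.69), led by dyf-4 (1.19), pros-1 (0.83) and che-14 (0.80). Calcium and potassium channel genes were higher in 35 of 49 and lower in 0 (median 0.52), and higher in 23 after quantile normalization. The large-conductance potassium channel slo-1 had 3.95, 4.39 and 5.22 FPKM in WLZ3, against 1.55, 1.39 and 2.16 FPKM in WLZ1 and 7.87 FPKM in N2.

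Muscle genes moved together. Of 34 contractile protein genes, 31 were higher in WLZ3 and 1 lower, with a median log2 change of 0.82. Their summed level was 5257, 4223 and 4789 FPKM in WLZ3, against 3206, 2902 and 3099.7 FPKM in WLZ1 and 5311 to 6044 FPKM in N2. myo-3, the myosin heavy chain at the centre of the thick filament, had 16.06, 13.8 and 16.3 FPKM in WLZ3, against 6.55, 5.31 and 6.42 FPKM in WLZ1 and 25.9 FPKM in N2 (log2 change 1.21, SE 0.10, limma adjusted p = 4.81e-05). The troponins tni-1 and tnt-4, which set the calcium response of the thin filament, rose by 1.44 and 1.36. act-2, an actin also used outside muscle, fell to 610.3, 596 and 556 FPKM in WLZ3, against 681, 743 and 681 FPKM in WLZ1 (log2 change -0.26, limma adjusted p = 0.0134, lost without WLZ3 replicate 3). Actin genes are near-identical copies, and how reads were shared between them is not given.

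Of 30 genes of dense bodies, which anchor the thin filaments to the membrane, 29 were higher and 0 lower (median 0.74). unc-95, a LIM domain protein of these sites, had 17.4, 17.1 and 18.9 FPKM in WLZ3, against 8.21, 6.59 and 7.51 FPKM in WLZ1 (log2 change 1.16, limma adjusted p = 1.6e-05). Basement membrane genes were higher in 20 of 23 and lower in 0 (median 0.52), though higher in 11 and lower in 1 after quantile normalization. The perlecan unc-52, which also stands in the dense body list, rose by 1.14, the SPARC protein ost-1 by 0.96 and the agrin agr-1 by 0.86. Gap junction innexins were higher in 15 of 25 and lower in 2 (median 0.47). inx-6, which couples pharyngeal muscle, rose by 1.33 and unc-9, which couples body wall muscle and neurons, by 1.07, whereas the gonad innexins inx-14 and inx-22 fell by 0.25 and 0.20, and inx-22 was lost without WLZ3 replicate 3. The named members of this family thus lay on opposite sides.

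Pharyngeal genes were also mostly higher in WLZ3. Of 28 tested, 21 were higher in WLZ3 and 1 lower (median 0.66). The 1 lower was dyf-3, the same gene as the fall in the cilia list, and myo-1 also stands in the contractile protein list. phat-5, a product of the pharyngeal glands, had 14.3, 12.4 and 13.3 FPKM in WLZ3, against 1.97, 1.98 and 3.82 FPKM in WLZ1 and 38.7 FPKM in N2 (log2 change 2.04, SE 0.25, limma adjusted p = 0.000363). idpc-1 and idpa-3, disordered proteins of the pharyngeal cuticle, rose by 2.03 and 1.72. The abu and pqn genes, which encode glutamine- and asparagine-rich proteins and several of which line the pharynx, had 27 higher and 5 lower of 52 tested of 69 (median 0.37), with 12 lower after median-of-ratios scaling. abu-14 had 56.98, 42.96 and 48.0 FPKM in WLZ3, against 8.34, 6.8999 and 12.2 FPKM in WLZ1 (log2 change 2.33, limma adjusted p = 4.64e-05). pqn-84 went the other way, with 0.279, 0.286 and 0.331 FPKM in WLZ3, against 9.58, 6.92 and 6.77 FPKM in WLZ1 and 0.185 FPKM in N2.

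Cuticle collagens had the highest median of the 50 lists. Collagens, which form the layers of the worm cuticle, were tested for 126 of 179 genes, and 107 were higher in WLZ3 and 0 lower, with a median log2 change of 1.47, and 92 were at least 2-fold higher. Without WLZ3 replicate 1, 96 were higher and 0 lower, and the median was 1.23. Their summed level was 15566, 10909 and 12133 FPKM in WLZ3, against 5923, 5950.5 and 5637 FPKM in WLZ1 and 10857 to 12036 FPKM in N2. Replicate 1 was the highest WLZ3 library, yet replicates 2 and 3 also lay far above every WLZ1 library. In 57 collagens replicate 1 exceeded 2 times the mean of the other WLZ3 libraries. In the remaining 69, 62 were higher (median 1.19), and 60 without replicate 1 (median 1.09). Collagen genes resemble one another, so the share of reads between copies is uncertain.

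Other surface genes moved with them. Of 40 cuticlin and apical matrix genes, 36 were higher and 1 lower (median 0.76). cut-2, a cuticlin, had 126, 119.9 and 135.1 FPKM in WLZ3, against 18.97, 18.98 and 31.8 FPKM in WLZ1 and 321 FPKM in N2 (log2 change 2.44, SE 0.20, limma adjusted p = 3.89e-05). cut-3 rose by 2.36 and the lipocalin-related lpr-4 by 1.75. egg-6, a protein of the apical matrix, was the single fall (-0.18, limma adjusted p = 0.0234) and was lost without WLZ3 replicate 3 or WLZ1 replicate 3. Hedgehog-related and patched-related genes, a nematode set linked to the epidermis and cuticle, were higher in 43 and lower in 2 of 54 tested of 88 (median 0.85). grl-7 had 20.52, 18.1 and 18.1 FPKM in WLZ3, against 3.99, 3.996 and 4.84 FPKM in WLZ1 (log2 change 1.92, limma adjusted p = 2.81e-06). The patched proteins ptc-1 and ptr-2, at over 100 FPKM in all 6 libraries, were the called falls, by 0.16 and 0.27, and the ptc-1 call was lost without WLZ3 replicate 1 or replicate 3.

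Moulting genes were higher in 22 of 30 and lower in 1 (median 0.48), and higher in 14 after quantile normalization. mlt-9, needed to complete the moult, had 12.8, 11.53 and 12.5 FPKM in WLZ3, against 3.24, 2.51 and 3.62 FPKM in WLZ1 (log2 change 1.69, limma adjusted p = 1.46e-05), and the epidermal factor grh-1 rose by 1.59. The single fall, let-767, a steroid dehydrogenase (-0.17, limma adjusted p = 0.0229), was lost without WLZ3 replicate 2 or 3 or WLZ1 replicate 1 or 3. Epidermal antimicrobial peptides were higher in 11 of 16 and lower in 0 (median 0.74). nlp-30 had 15.1, 7.03 and 10.04 FPKM in WLZ3, against 2.52, 3.55 and 3.68 FPKM in WLZ1. Levels in N2 were at or above the WLZ3 mean for cut-2, grl-7, mlt-9 and nlp-30 alike.

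**Figure D3:**
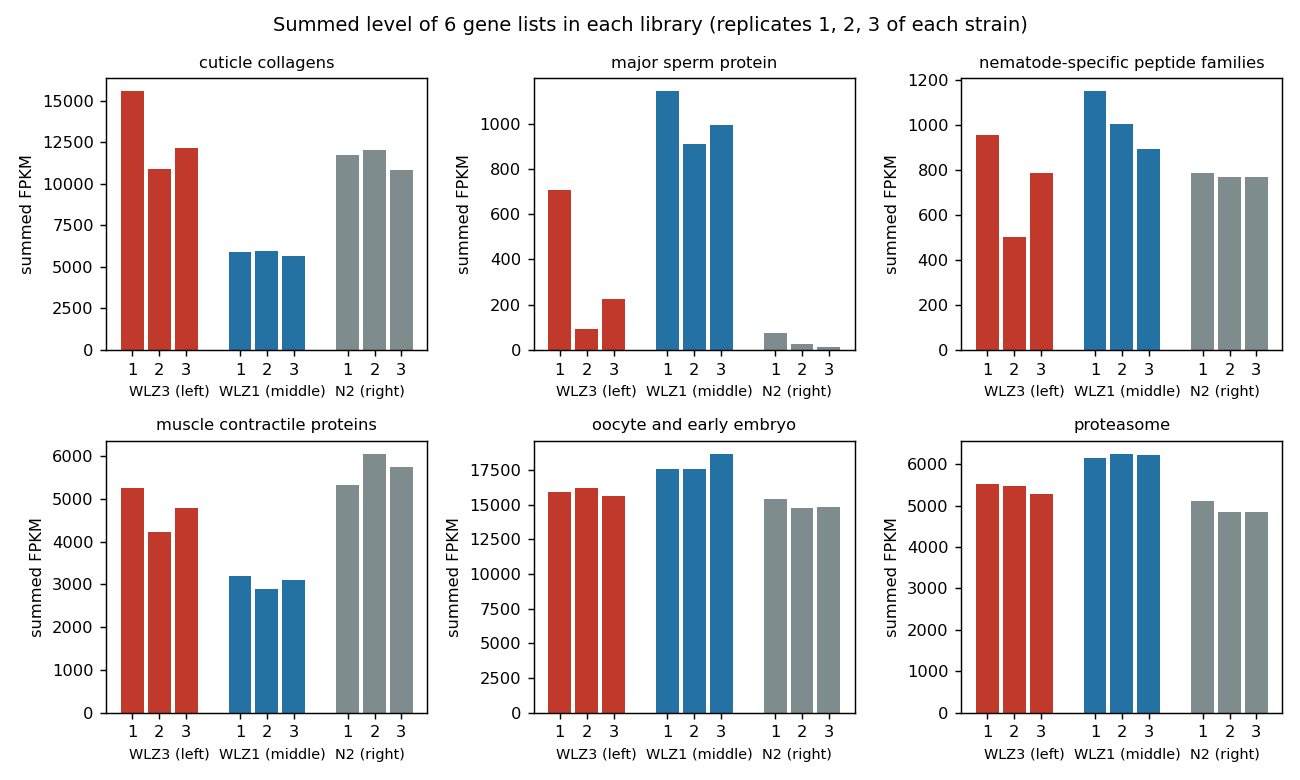
Summed FPKM of 6 gene lists in each library, with WLZ3 replicates on the left, WLZ1 in the middle and N2 on the right of each panel; bars start at 0. WLZ3 replicate 1 is the highest WLZ3 library for collagens, major sperm protein and nematode-specific peptides, while oocyte and proteasome genes are even within each strain and lower in WLZ3 than in WLZ1.

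Sperm genes were lower in WLZ3. Major sperm protein genes, which encode the cytoskeletal protein of the crawling sperm, were tested for 28 of 34 members, and 23 were lower and 0 higher (median log2 change -1.89). Their summed level was 707, 91.4 and 227 FPKM in WLZ3, against 1142, 909 and 995 FPKM in WLZ1 and 11.6 to 75.5 FPKM in N2. The WLZ3 libraries spread widely but stayed below every WLZ1 library. Without WLZ3 replicate 1 each of the 28 tested was lower and the median was -2.64. The count depended on the other libraries. It was 6 without WLZ3 replicate 2, 3 without WLZ3 replicate 3, and 5, 8 and 6 without WLZ1 replicates 1, 2 and 3. msp-65 had 18.3, 1.74 and 4.34 FPKM in WLZ3, against 32.8, 25.19 and 30.3 FPKM in WLZ1 (log2 change -2.21, SE 0.60, limma adjusted p = 0.0167). These genes are near-identical copies, so single members are uncertain.

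Of 43 other sperm genes tested of 75, 21 were lower and 2 higher (median -0.81), and 29 were lower without WLZ3 replicate 1, but 11 without WLZ3 replicate 3. After median-of-ratios scaling 33 were lower, and after quantile normalization 32. ssq-2, a sperm-specific gene, had 13.5, 1.62 and 5.15 FPKM in WLZ3, against 26.2, 22.2 and 20.9 FPKM in WLZ1 (log2 change -1.96, limma adjusted p = 0.0152). swm-1, a protease inhibitor that keeps sperm from activating early, rose by 0.57. The nematode-specific peptide families had 11 higher and 9 lower of 45 tested of 64 (median -0.14), against 30% and 13.5% of all genes. The counts were 7 higher and 17 lower without WLZ3 replicate 1, and 7 higher without WLZ3 replicate 3. They had 8 higher and 16 lower after median-of-ratios scaling, 7 and 14 after quantile normalization, and 11 and 14 with the replicate block. nspb-11 rose by 1.94, while nspa-7 was listed at 0 in every WLZ3 library, against 8.93, 9.69 and 12.3 FPKM in WLZ1. cyc-2.2, a cytochrome c, was uneven in WLZ3 like the sperm genes, with 6.04, 1.52 and 1.83 FPKM in WLZ3, against 10.2, 6.33 and 11.2 FPKM in WLZ1 (log2 change -1.44, limma adjusted p = 0.0119).

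Genes used in male neurons and the male tail were examined because of the sperm result, as a list added after the values were seen. Of its 15 members 1 passed the limit on low values, her-1, which directs male development. It had 1.69, 1.44 and 1.41 FPKM in WLZ3, against 4.13, 2.65 and 3.97 FPKM in WLZ1 (log2 change -0.85, limma adjusted p = 0.00205). Summed over the list, the level was 4.81, 4.55 and 4.51 FPKM in WLZ3, against 8.71, 6.84 and 9.07 FPKM in WLZ1 and 5.38 to 6.51 FPKM in N2, and the part of males in these samples was not tested. her-1 alone gave 4.13 of the 8.71 FPKM in WLZ1 replicate 1. Among the untested members, mab-3 had 0.411, 0.322 and 0.514 FPKM in WLZ3, against 1.04, 0.735 and 0.713 FPKM in WLZ1. pkd-2, cwp-1, cwp-2, lov-1, mab-23 and try-5 were also lower in WLZ3 without overlap, at low values. cil-7, of ciliated neurons that include male-specific ones, went the other way, with 0.477, 0.402 and 0.498 FPKM in WLZ3, against 0.212, 0.214 and 0.223 FPKM in WLZ1, and so did klp-6, a kinesin of the same neurons, with 0.384, 0.350 and 0.367 FPKM in WLZ3, against 0.172, 0.183 and 0.271 FPKM in WLZ1.

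Oocyte and germ line genes were slightly but widely lower. Of 42 oocyte and early embryo genes, 25 were lower and 1 higher (median -0.19, against 0.08 over all genes). Falls were more common among genes at 30 to 300 FPKM as a class. Of all genes 13.5% were lower, against 21.2% of those at 30 to 100 FPKM and 25.6% of those at 100 to 300 FPKM, each with a median of -0.05. Over 300 FPKM, 15.3% were lower and 15.8% higher (median 0.03). cpg-3, an eggshell proteoglycan, had 902, 941 and 970.2 FPKM in WLZ3, against 1352, 1602 and 1299.5 FPKM in WLZ1 (log2 change -0.59, SE 0.08, limma adjusted p = 0.000793). mex-6, which patterns the early embryo, fell by 0.39. Of 35 P granule and germ line small RNA genes, 22 were lower and 0 higher (median -0.17), and 11 lower without WLZ3 replicate 3 or 13 without WLZ1 replicate 2. deps-1, needed to assemble P granules, had 102.8, 107 and 99.4 FPKM in WLZ3, against 139, 159.6 and 146 FPKM in WLZ1 (log2 change -0.52, limma adjusted p = 0.000336). Meiotic chromosome genes were lower in 14 of 41 and higher in 0 (median -0.13), with the recombinase rad-51 at -0.27, and 9 were lower without WLZ3 replicate 3 but 31 after median-of-ratios scaling.

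DNA replication and cell cycle genes were lower in 27 of 45 and higher in 1 (median -0.16), with 15 lower without WLZ3 replicate 3. rnr-1, a ribonucleotide reductase subunit, fell by 0.26. The single rise was cki-1, an inhibitor that holds cells out of the cycle, with 16.7, 17.1 and 18.4 FPKM in WLZ3, against 9.85, 5.67 and 9.03 FPKM in WLZ1 (log2 change 1.03, limma adjusted p = 0.000986). MES and synMuv chromatin genes, a list that holds lin-15A and lin-15B, were lower in 11 of 31 and higher in 1 (median -0.11). The number lower was 20 after median-of-ratios scaling, 7 with the replicate block, 5 without WLZ3 replicate 1, 6 without WLZ1 replicate 1, and 7 without WLZ3 replicate 2 or 3, WLZ1 replicate 3 or N2 replicate 2 or 3. Proteasome subunits were lower in 22 of 33 and higher in 0 (median -0.18), and 14 were lower without WLZ3 replicate 3. rpt-3, an ATPase of the proteasome cap, had 150.4, 155 and 148 FPKM in WLZ3, against 186, 196 and 186 FPKM in WLZ1 (log2 change -0.32, limma adjusted p = 0.000633). Each of these lists kept a median below 0 with both other scalings, at -0.24 to -0.33 after median-of-ratios scaling and -0.14 to -0.21 after quantile normalization.

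Among yolk and gut genes the calls went both ways. Of 6 vitellogenins, the yolk proteins made in the intestine for oocytes, 2 were lower and 0 higher (median -0.24). vit-3 had 249, 269 and 237 FPKM in WLZ3, against 355, 348 and 411 FPKM in WLZ1 and 222 FPKM in N2 (log2 change -0.56, SE 0.08, limma adjusted p = 0.000814), and vit-4 fell by 0.54. These genes are close copies. Intestinal identity and function genes were higher in 9 of 31 and lower in 4 (median 0.08, a sign that turned with both other scalings), near the 30% and 13.5% of all genes, but 5 were higher and 9 lower after median-of-ratios scaling. Intermediate filaments under the gut lumen led the rises, with ifb-2 at 41.3, 32.1 and 36.7 FPKM in WLZ3, against 18.97, 16.9 and 18.8 FPKM in WLZ1 (log2 change 0.97, limma adjusted p = 0.000121), and ifo-1 at 0.85 and ifd-2 at 0.78. The cathepsin cpr-5 and the acid phosphatase pho-1 fell by 0.57 and 0.52.

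Genes of defence at the gut and body wall were mixed. C-type lectins were tested for 106 of 259 members, with 29 higher and 36 lower, or 19 and 41 after either other scaling (median 0.09, -0.02 after median-of-ratios scaling and -0.17 after quantile normalization). Over all genes 30% were higher and 13.5% lower, so in the deposited values lectins were called lower more often and higher about as often. Of the 106 lectins tested 31 were called at least 2-fold lower, against 3.86% of all genes. Among them was clec-94, with 0, 0.449 and 0.283 FPKM in WLZ3, against 20.9, 13.4 and 15.4 FPKM in WLZ1. It is 1 of the 7 lectins on in WLZ1 only, which passed the limit on low values through WLZ1 alone. The direction of these 7 was thus fixed by that limit, and the lectin falls were in part selected by the WLZ1 level. clec-71 rose by 1.41. Lysozyme and saposin-like genes were higher in 21 and lower in 2 of 34 (median 0.34), and 12 were higher without WLZ3 replicate 3. spp-13 rose by 1.33 and ilys-3 by 1.26, while lys-7 had 298, 350.1 and 383 FPKM in WLZ3, against 427, 524 and 392.2 FPKM in WLZ1 (log2 change -0.38, limma adjusted p = 0.0316), a call lost without replicate 1 or 2 of either strain.

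The dod and irg genes, known from infection and insulin signalling studies, were higher in 11 and lower in 1 of 22 (median 0.37). dod-21 had 3.61, 2.53 and 2.85 FPKM in WLZ3, against 0.164, 0.175 and 0.247 FPKM in WLZ1 and 0.115 FPKM in N2 (log2 change 1.73, SE 0.13, limma adjusted p = 2.52e-05). irg-6 had 22.5, 27.9 and 20.7 FPKM in WLZ3, against 7.63, 8.696 and 7.27 FPKM in WLZ1 and 7.94 FPKM in N2. For both genes WLZ3 was the strain apart, with WLZ1 close to N2 by mean. The pals genes, known from infection by intracellular pathogens, were higher in 7 of 10 and lower in 0 (median 0.37), but higher in 4 after median-of-ratios scaling and in 2 after quantile normalization. Transthyretin-related genes were higher in 32 of 50 and lower in 0 (median 0.42), with 21 higher without WLZ3 replicate 3, 19 after median-of-ratios scaling and 20 after quantile normalization.

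In the deposited values metabolic and detoxification lists were called no more often than all genes (30% higher and 13.5% lower), and their counts moved with scaling. Fatty acid desaturases and elongases had 3 higher and 2 lower of 21 (median -0.11), with 4 lower without WLZ3 replicate 2 and 10 lower after median-of-ratios scaling. fat-5, a palmitate desaturase, had 15.6, 16.7 and 16.8 FPKM in WLZ3, against 29.1, 29.2 and 25.6 FPKM in WLZ1 (log2 change -0.74, limma adjusted p = 0.00275), and elo-2 fell by 0.42. Glutathione S-transferases had 10 higher and 2 lower of 35 (median 0.18), and 5 higher without WLZ1 replicate 1 or 6 without WLZ3 replicate 3. After median-of-ratios scaling 5 were higher, and after quantile normalization 2. gst-28 rose by 0.95. Cytochromes P450 and UDP-glucuronosyltransferases had 30 higher and 10 lower of 100 (median 0.13), but 23 and 16 after median-of-ratios scaling and 10 and 22 after quantile normalization (median -0.09). Without WLZ3 replicate 3 there were 16 higher and 5 lower, and the number lower was 5 without WLZ3 replicate 1 and 6 without WLZ1 replicate 1 or 2. Respiratory chain genes of the nucleus had 6 higher and 5 lower of 50 (median 0.02, a sign that turned with both other scalings), and 3 were lower without WLZ3 replicate 3. After median-of-ratios scaling 3 were higher and 13 lower. cox-4, a subunit of cytochrome c oxidase, rose by 0.51.

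Stress and quality control genes, often examined in LRRK2 models, were called higher less often than all genes (30%) in the deposited values. Heat shock and endoplasmic reticulum stress genes, each with 6 lower of 26, were also called lower more often than the 13.5% of all genes. More of these genes were called lower after median-of-ratios scaling. Heat shock genes had 5 higher and 6 lower of 26 (median -0.14), with 3 lower without WLZ3 replicate 3 and 11 lower after median-of-ratios scaling. The small heat shock proteins hsp-12.1 and hsp-12.2 rose by 1.32 and 1.22. The inducible chaperone hsp-70 had 5.43, 4.08 and 5.82 FPKM in WLZ3, against 11.97, 11.6 and 9.63 FPKM in WLZ1 and 24.5 FPKM in N2 (log2 change -0.99, SE 0.14, limma adjusted p = 0.000824), and sip-1, a small heat shock protein of oocytes and embryos, fell by 0.48. Endoplasmic reticulum stress genes had 2 higher and 6 lower of 26 (median -0.00), with 12 lower after median-of-ratios scaling, and 2 lower without WLZ3 replicate 3 or 3 without replicate 1. The number higher was 5 without WLZ1 replicate 1. trap-2, of the translocon, and the disulfide isomerase pdi-2 rose by 0.46 and 0.30. hsp-4, the BiP chaperone, had 164, 157 and 159 FPKM in WLZ3, against 185, 186 and 195 FPKM in WLZ1 (log2 change -0.24, limma adjusted p = 0.0165, lost without WLZ3 replicate 3 or WLZ1 replicate 3). The mitochondrial unfolded protein response list had 1 higher and 2 lower of 17 (median -0.07), but 10 lower after median-of-ratios scaling. Of its called members, dve-1, a transcription factor of that response, rose by 0.64, and ymel-1, a protease of the inner membrane, was the larger fall (-0.34). The number higher was 3 without WLZ1 replicate 3.

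Autophagy genes had 5 higher and 1 lower of 33 (median 0.01), fewer than the 30% and 13.5% of all genes, and 3 higher without WLZ3 replicate 2 or replicate 3 or with the replicate block. The balance turned with scaling, to 2 higher and 14 lower after median-of-ratios scaling and 2 and 5 after quantile normalization. hlh-30, the worm TFEB, which activates autophagy and lysosome genes, had 39.8, 39.0 and 40.8 FPKM in WLZ3, against 30.6, 30.3 and 29.6 FPKM in WLZ1 and 53.3 FPKM in N2 (log2 change 0.39, SE 0.05, limma adjusted p = 0.00054). sepa-1, a receptor for the removal of P granules, fell by 0.41. Lysosomal hydrolases and V-ATPase subunits had 14 higher and 5 lower of 61 (median 0.04), and 9 higher without WLZ3 replicate 3. Here too the balance turned after median-of-ratios scaling, to 6 higher and 17 lower, while 10 were higher and 7 lower after quantile normalization. cpz-2, a cathepsin Z, rose by 0.76 and the aspartic protease asp-12 fell to 378, 393 and 327 FPKM in WLZ3, against 557, 597 and 566 FPKM in WLZ1 (log2 change -0.65, limma adjusted p = 0.000188). The medians of both lists turned sign with both other scalings.

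Worm counterparts of Parkinson disease genes had 3 higher and 0 lower of 17 (median 0.06, a sign that turned with both other scalings), a smaller share than the 30% and 13.5% of all genes. After median-of-ratios scaling 2 were higher and 5 lower, and after quantile normalization 1 and 1. The 3 were ptl-1, the worm tau-like protein, at 5.08, 4.60 and 5.61 FPKM in WLZ3, against 2.02, 2.04 and 2.93 FPKM in WLZ1 (log2 change 0.88, limma adjusted p = 0.00159), gba-1, a glucocerebrosidase, at 0.49, and lrk-1. gba-1 was lost with quantile normalization and without WLZ3 replicate 3, which left 1 gene called. Rab GTPases had 5 higher and 1 lower of 21 (median 0.03), again under the shares of all genes, but 4 higher and 7 lower after median-of-ratios scaling (median -0.10) and 3 and 2 after quantile normalization. rab-3, the Rab of synaptic vesicles, had 14.5, 11.6 and 15.8 FPKM in WLZ3, against 7.65, 6.44 and 7.15 FPKM in WLZ1 and 26.9 FPKM in N2 (log2 change 0.88, SE 0.18, limma adjusted p = 0.00448). rab-8, whose mammalian counterpart is an LRRK2 substrate, had 104.4, 108 and 107 FPKM in WLZ3, against 130.2, 125 and 119.7 FPKM in WLZ1 (log2 change -0.23, limma adjusted p = 0.024), a call lost without WLZ3 replicates 1 or 3 or WLZ1 replicates 1 or 2. rab-10, another such counterpart chosen after its values were seen, had 411, 430.1 and 423 FPKM in WLZ3, against 473, 467 and 424 FPKM in WLZ1 and did not pass (log2 change -0.11, limma adjusted p = 0.204); after median-of-ratios scaling it did (-0.25, limma adjusted p = 0.0141).

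In the deposited values the transcription factor families examined were called higher more often than all genes (30% higher and 13.5% lower). Low genes rose more often than that as a class. Of all genes under 3 FPKM 38.7% were higher (median 0.29), and of those at 3 to 10 FPKM 48.8% (median 0.34). Nuclear hormone receptors were tested for 165 of 286 members, and 93 were higher and 2 lower (median 0.38), with 59 higher without WLZ3 replicate 3, 28 higher and 7 lower after quantile normalization (median 0.11), and 76 and 8 after median-of-ratios scaling. nhr-58 had 4.55, 4.003 and 4.79 FPKM in WLZ3, against 1.71, 1.44 and 1.81 FPKM in WLZ1 (log2 change 1.04, limma adjusted p = 0.000197). Homeobox factors were higher in 47 and lower in 5 of 74 tested of 93 (median 0.53), with 43 higher and 11 lower after median-of-ratios scaling and 26 and 11 after quantile normalization (median 0.25). zag-1, which specifies neurons, had 9.03, 9.88 and 9.63 FPKM in WLZ3, against 4.24, 2.80 and 4.35 FPKM in WLZ1 (log2 change 1.15, limma adjusted p = 0.000287), and unc-42, a factor of motor circuit neurons, rose by 1.11. Of nuclear hormone receptors the falls, nhr-2 and nhr-17, were both lost without WLZ3 replicate 1 or WLZ1 replicate 1 or 2. Histone genes had 5 higher and 3 lower of 38 (median -0.01), with 5 lower without WLZ3 replicate 2, 10 after median-of-ratios scaling and 9 after quantile normalization, with the linker histone hil-7 at 231.1, 289.5 and 237 FPKM in WLZ3, against 115.96, 65.4 and 104.6 FPKM in WLZ1. Most core histone transcripts lack a poly(A) tail, and their genes are near-identical copies. Ribosomal protein genes had 12 higher and 0 lower of 63 (median 0.15), under the 30% and 13.5% of all genes, but 2 higher and 2 lower after median-of-ratios scaling (median 0.01) and 7 higher after quantile normalization. The number higher was 3 without WLZ3 replicate 1 or WLZ1 replicate 2, 5 without WLZ3 replicate 3 or WLZ1 replicate 1, 22 without WLZ1 replicate 3, and 5 with the replicate block.

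**Figure D4:**
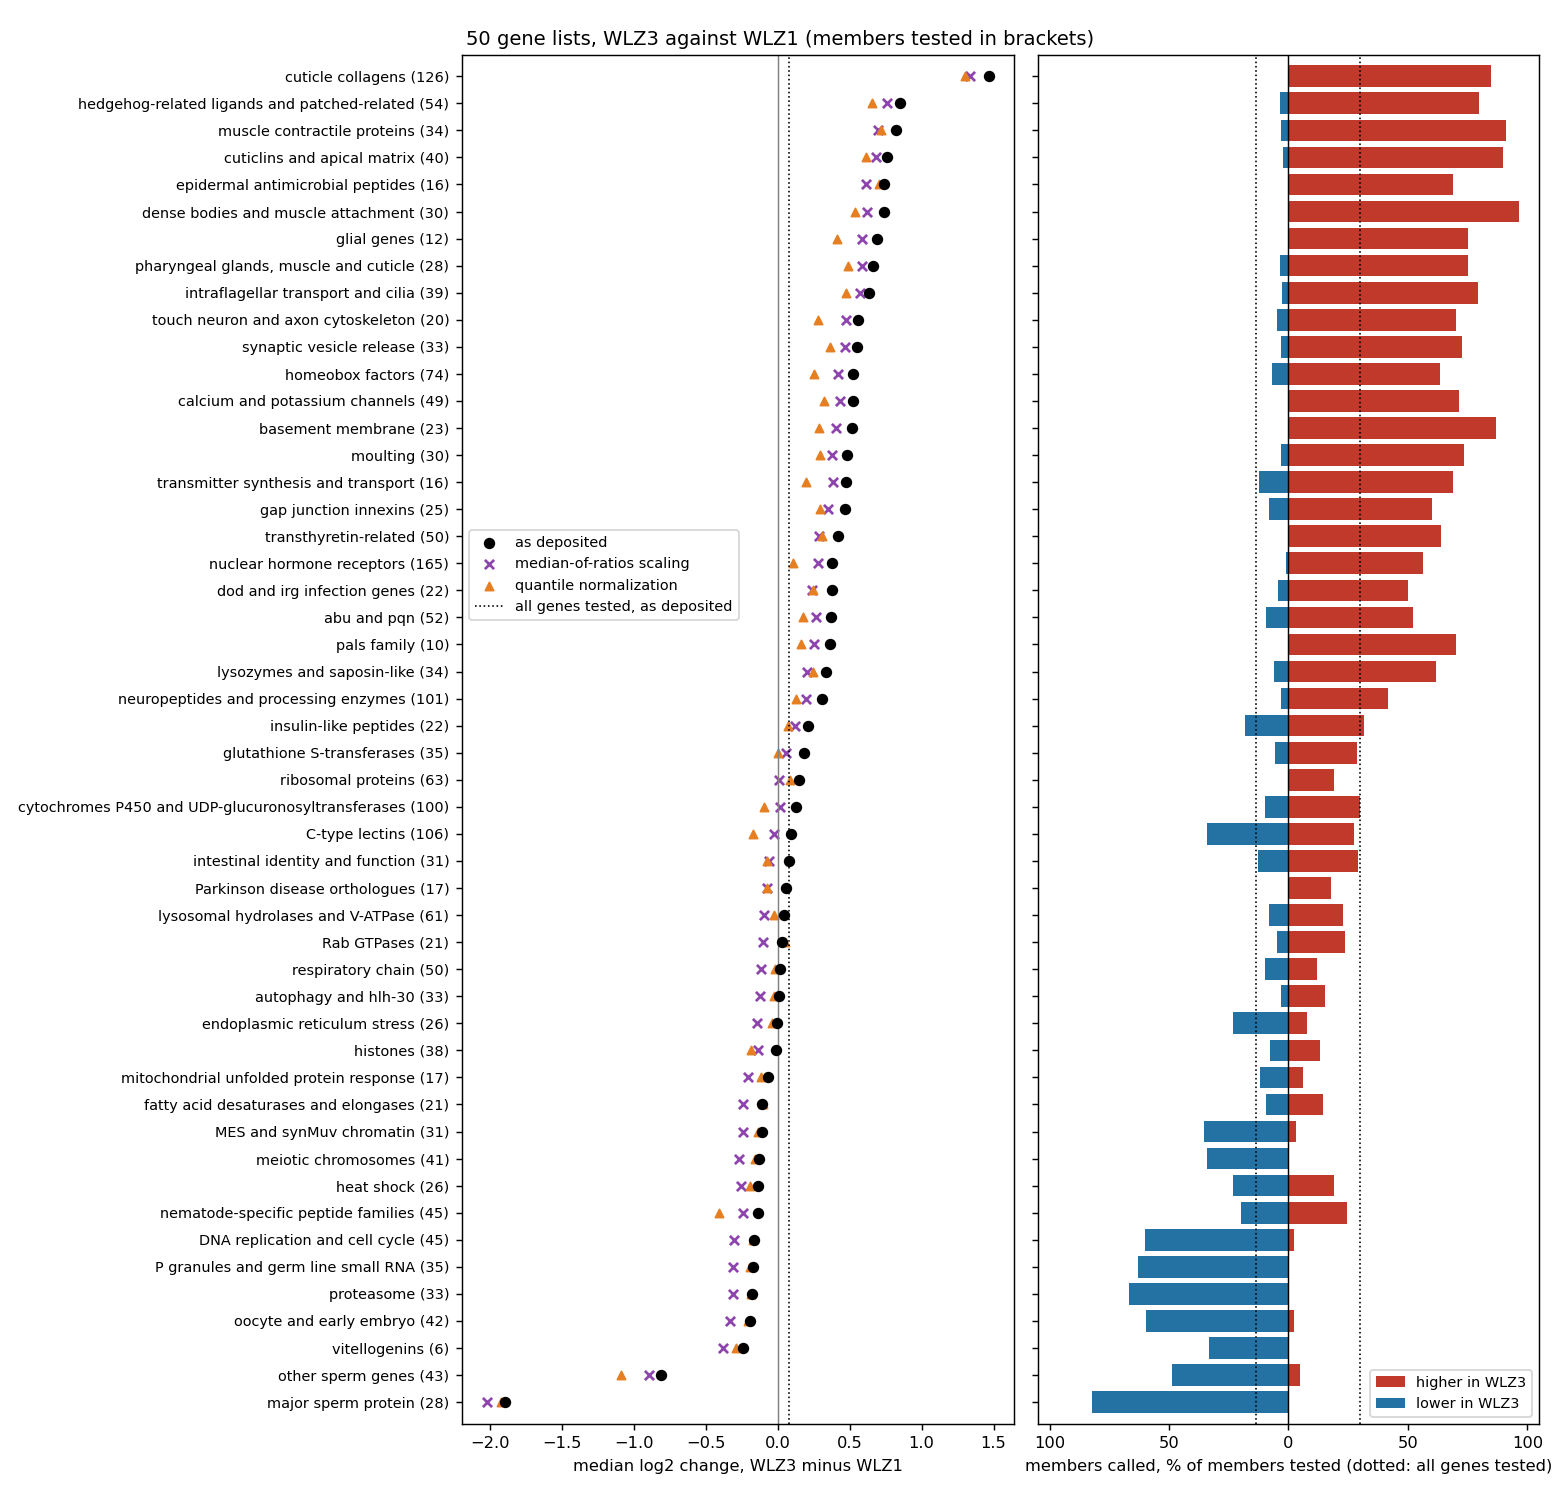
The left panel gives the median log2 change (WLZ3 minus WLZ1) of each of 50 lists as deposited and with 2 other scalings, and the right panel the share of tested members called higher or lower in WLZ3; dotted lines mark all genes tested. Collagens stand at the top at 1.47 and major sperm protein at the bottom at -1.89, and the lists whose sign turns with scaling sit in the middle near 0.

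The calls were not spread evenly over the genome or over levels. On the X chromosome 47.5% of 1945 genes were higher in WLZ3 and 4.42% lower (median 0.29), against 21.9% and 19.2% of 2271 genes on chromosome I (median -0.01). Of its genes 37.8% were higher and 9.51% lower after median-of-ratios scaling, and 28.0206% and 12.9% after quantile normalization. The X median was 0.17 after median-of-ratios scaling and 0.08 after quantile normalization. Chromosome V had 34.7% higher and 11.479% lower, and chromosomes II, III and IV had 24.2% to 28.4% higher and 14.3% to 15.8% lower. By level, 48.8% of the 2980 genes with a mean of 3 to 10 FPKM were higher and 6.68% lower, whereas of the 3321 genes at 30 to 100 FPKM 11.4% were higher and 21.2% lower. These shares depended on scaling. At 3 to 10 FPKM 40.8% were higher and 10.6% lower after median-of-ratios scaling, but 22.7% and 19.2% after quantile normalization. At 30 to 100 FPKM 7.02% were higher and 57.8% lower after median-of-ratios scaling, and 10.7% and 17.6% after quantile normalization.

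**Figure D5:**
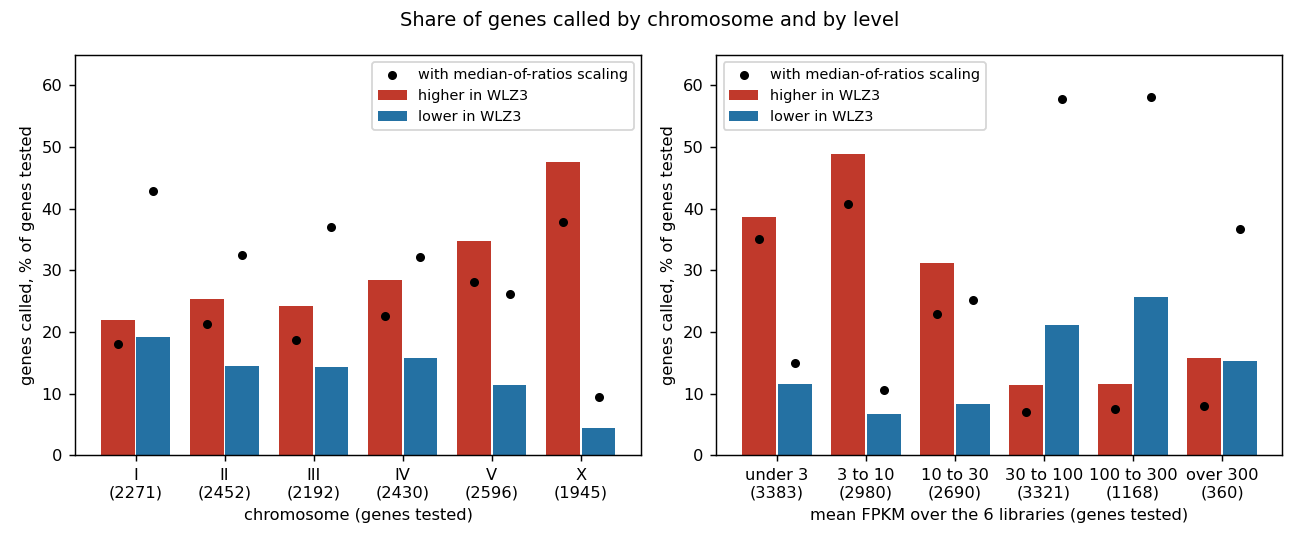
Percent of tested genes called higher (left bar of each pair) or lower (right bar) in WLZ3 against WLZ1, by chromosome and by mean FPKM, with tested genes in brackets; dots give the shares with median-of-ratios scaling. Among the nuclear chromosomes X has the highest share of rises, 47.5%, and among the levels genes at 3 to 10 FPKM, 48.8%; the dots show that the shares by level change with scaling.

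Of the 217 genes drawn by the naming rule, 63 overlap another annotated gene, and since the strand of counting is not given their values are uncertain. Among those described above they include rbf-1, syd-1, ace-3, snf-11, tbh-1, mec-12, myo-3, unc-52, agr-1, ptl-1, rab-3, hlh-30, cpz-2, gba-1, fat-5, cpg-3, deps-1, hsp-70, sip-1, zag-1, unc-42, cyc-2.2, dyf-4, idpc-1, idpa-3, cut-3, egg-6, hsp-12.2, pho-1, rnr-1, inx-14, tdc-1, pdi-2, nhr-17, try-8, scl-15, F09C6.10, meic-1 and ztf-28.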

How the data were processed

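The measurements are whole-worm poly(A) RNA levels in 9 libraries, 3 each of WLZ3, WLZ1 and N2. The authors deposited FPKM values for 28749 genes in a single table, whose columns carry the sample names. Reads went through fastp 0.23.2, HISAT2 2.2.1 and featureCounts 2.0.3 with the build WBcel235, per the submitters' processing notes. Neither the strand of counting nor the way FPKM was computed is stated there. RefSeq's gene table for the build supplied names and positions for 28744 genes, and 5 had no match. FPKM times exon length (Ensembl 115) recovered the library totals; 6 reads in 1 kb equal 0.112 to 0.133 FPKM, a limit for counting error only. The limma 3.58.1 fit (intensity trend) took log2(FPKM + 1) of all 9 libraries with 1 mean per strain, for genes of at least 1 FPKM in at least 3 of 6 libraries, and tested WLZ3 minus WLZ1 two-sided at an adjusted p of 0.05. N2 entered only the estimate of the spread. On simulated data with 200 of 13902 genes changed 2-fold and independent noise for each gene, the fit recovered 184, with 13 false calls. The changed genes were drawn from those above about 5 FPKM, so recovery of lower genes was not tested. That simulation held no shifts shared between genes, as in WLZ3 replicate 1, and did not test the scaling.

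The comparison, the 50 gene lists and the naming rule were chosen with earlier results of these data known. Named were lin-15A, lin-15B, snb-1 and lrk-1, the 15 largest rises and falls among called genes of at least 5 FPKM in the higher strain without overlap, up to 3 rises and 2 falls per list, and up to 6 genes on in 1 strain only. Lists are described by counts and medians. Alternatives were 2 pseudocounts (0.1 and 0.5), 2 filters, the 6 libraries alone, a replicate block, median-of-ratios scaling, quantile normalization, no trend, and leaving out each library. Replicate numbers did not pair the samples, since deviations of same-numbered WLZ3 and WLZ1 libraries correlated at -0.08, -0.01 and -0.12.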

Additional observations from a re-analysis of the deposited data

How the results depend on the processing

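Of the counts of genes, the total called was 3471 when genes needed a mean of 5 FPKM, against 6047, and within 1.5 times of 6047 in the other fits. The number higher in WLZ3 was 2155 with that filter and 2500 with quantile normalization, and the number lower was 4230 with median-of-ratios scaling. Genes differing at least 2-fold numbered 532 with the 5 FPKM filter, of which 424 were higher and 108 lower in WLZ3, and 829 were at least 2-fold higher with quantile normalization. That filter tests 9216 genes in place of 13902; the cause of the other shifts was not tested. With 1 library left out, the total was 4293 to 6355, the number higher 3184 to 4362 and the number lower 1109 (without WLZ3 replicate 3) to 1993. At least 2-fold differences numbered 1702 to 2062 in all, 1256 to 1567 higher and 377 to 678 lower. With the replicate number as a block, which the check of pairing did not call for, 5302 genes were called, 3752 higher and 1550 lower. The lrk-1 change reversed to -0.0672 with quantile normalization (limma adjusted p = 0.524). Medians of 51 lists changed sign for 7 with median-of-ratios scaling, 7 with quantile normalization and at most 2 with 1 library left out. Calls for genes under about 0.133 FPKM in a strain are limited by depth.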

Other observations

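Clusters of neighbouring genes, chosen after their values were seen, went with the strain difference. On chromosome II, between positions 2689917 and 3640297 of WBcel235, lay 9 of the 45 genes on in WLZ1 only, among 161 tested genes of which 22 were higher and 33 lower in WLZ3, against 25.3% higher and 14.6% lower over chromosome II. The window was set from these genes, so its counts are a description. Within it C16C8.19 had 0, 0.0852 and 0.300 FPKM in WLZ3, against 10.5, 11.6 and 6.91 FPKM in WLZ1, and its neighbour C16C8.7 had 0, 0.383 and 0.0845 FPKM in WLZ3, against 11.1, 12.98 and 8.46 FPKM in WLZ1. C16C8.9, C16C8.10, Y49F6B.20 and Y49F6B.6 beside them were also called lower in WLZ3. In the cluster of K12H6 genes, K12H6.4, K12H6.9, K12H6.5 and K12H6.8 were lower in WLZ3, and the flanking gene K12H6.6 had 32.1, 33.4 and 29.6 FPKM in WLZ3, against 32.4, 26.1 and 31.6 FPKM in WLZ1 (limma adjusted p = 0.531).

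The 12 protein-coding genes of mitochondrial DNA, a list added after the values were seen, were higher in 8 and lower in 0, against 30% and 13.5% of all genes. Their median log2 change was 0.44, against 0.08 over all genes. After median-of-ratios scaling 6 were higher, with ND1 and COX3 no longer called, and after quantile normalization 8. COX1, a subunit of cytochrome c oxidase, had 1472, 1618 and 1608 FPKM in WLZ3, against 1185, 1190.2 and 1107 FPKM in WLZ1 (log2 change 0.43, SE 0.10, limma adjusted p = 0.00902). ND6, a subunit of complex I, had 43.6, 43.7 and 42.1 FPKM in WLZ3, against 30.2, 25.9 and 26.9 FPKM in WLZ1 (log2 change 0.62, limma adjusted p = 0.000317). The median of the list was 0.33 after median-of-ratios scaling and 0.35 after quantile normalization, while the 50 tested respiratory chain genes of the nucleus had a median of 0.02.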
